A study of Bos taurus with 12 samples.

Results

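The genes IFNAR1, IFNAR2, IFNGR2 and IL10RB encode receptor chains for interferons and for cytokines of the interleukin 10 family, and they lie side by side on cattle chromosome 1. All sites whose deposited gene symbol was one of these 4 genes were taken, which gave 115 of the 196275 CpG cytosines in the deposited table of differing sites. IL10RB had 53 of them, IFNAR1 had 42, IFNGR2 had 19 and IFNAR2 had 1. None of the 1227 windows of 500 bases in the second deposited table carried any of these symbols. The genes were picked with earlier results of these data known, and every site had been listed by the authors for its difference between the groups, so the differences are a description and support nothing by themselves.

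Genomic DNA from whole blood of 12 dairy cows raised together was read by enzymatic methylation sequencing, in which unmodified cytosines are converted and read as thymines, so that 5-methylcytosine and 5-hydroxymethylcytosine are counted together as methylation. The replicate is the cow, and p-values set the difference between the groups against the spread between cows. In limma that spread was mostly one common to all listed sites. The Mastitis Susceptible Group (MSG, 6 cows) had left the herd within 1 year of blood collection because of complications of mastitis, an inflammation of the udder, which had not been recognised when the blood was drawn. The Mastitis Resilient Group (MRG, 6 cows) was still in the herd at that time and had a similar spread of ages. No treatment or engineered allele was named in the labels, blood cell composition was not given, and a change in the mix of cells cannot be told apart from a change of methylation within a cell type. A thymine in a cow's own genome reads as an unmethylated cytosine, and genotypes were not analysed here.

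Interferons and interleukin 10 act through paired receptor chains that have no kinase activity of their own and instead carry JAK family kinases, which phosphorylate STAT transcription factors. IFNAR1 and IFNAR2 together form the receptor for type I interferons, the antiviral cytokines that most nucleated cells can make. IFNGR2 is the signalling chain of the receptor for interferon gamma, the main macrophage-activating cytokine of T cells and NK cells. IL10RB is the shared chain of the receptors for interleukin 10, which restrains inflammation, and for several related cytokines, including the lambda interferons. In this build the 4 genes are read from the minus strand, so that a gene's start is at its higher coordinate.

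Of the 115 sites, 93 were lower and 22 were higher in MSG, a share of 80.9% lower where 47.3% of all listed sites were lower. IL10RB had 51 of 53 sites lower and IFNAR1 had 37 of 42, whereas IFNGR2 had 14 of 19 sites higher and the single site of IFNAR2 was higher. The sites spanned 256 kb, and neighbouring sites shared their values cow by cow, so they are not independent observations. The median absolute difference between group means was 34.5 percentage points, and the median SD between cows of a group was 33.3 points, against 32.7 and 26.4 points over all listed sites. The authors' deposited table gave these sites absolute differences of 26.3 to 57.6 points, where the smallest listed anywhere in it was 25.003. Differences between plain means of cows went down to 16.5 points at the same sites. Sites with smaller differences were not analysed here.

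The spread within groups was as wide as the differences because cows of both groups stood at the same levels. At no site did the 2 groups separate: 0 of 115 sites had groups that did not overlap, against 2.36% of all listed sites. These shares were not tested against each other. Neighbouring sites shared their values, so the 0 says nothing particular about the member sites. With limma and Benjamini-Hochberg adjustment over all 196275 sites, 0 of the 115 passed an adjusted p of 0.05 (0% of all listed sites passed), and the lowest adjusted p was 0.0781. An unadjusted p under 0.05 was reached by 70 of the 115 in limma (51.9% of all listed sites) and by 15 in an exact permutation test that compared the means (35.5% of all listed sites), which also passed 0 after adjustment. The limma count of 70 ran from 24 without MRG replicate 3 to 100 without MRG replicate 4. In those 2 fits, 89214 and 95409 of all 196275 listed sites had an unadjusted p under 0.05. When limma was fitted only to sites with a difference of 35 points or more, 40 of 71 member sites passed, as did 57.9% of such sites in the table. That filter selects on the difference that is tested. When it was fitted only to sites with no cow at exactly 0, 1 of 5 passed, as did 73.1% of such sites in the table. MRG replicate 4 was the lowest MRG cow over the IFNAR1 and IL10RB sites lower in MSG, at 0% in both. Values without it are given beside the main results. Leaving it out widened the difference of each of the 4 genes, from -32.3 to -42.1 points for IL10RB and from -28.5 to -40.3 for IFNAR1. Ranges with each cow of either group left out are given at the end.

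**Figure D1:**
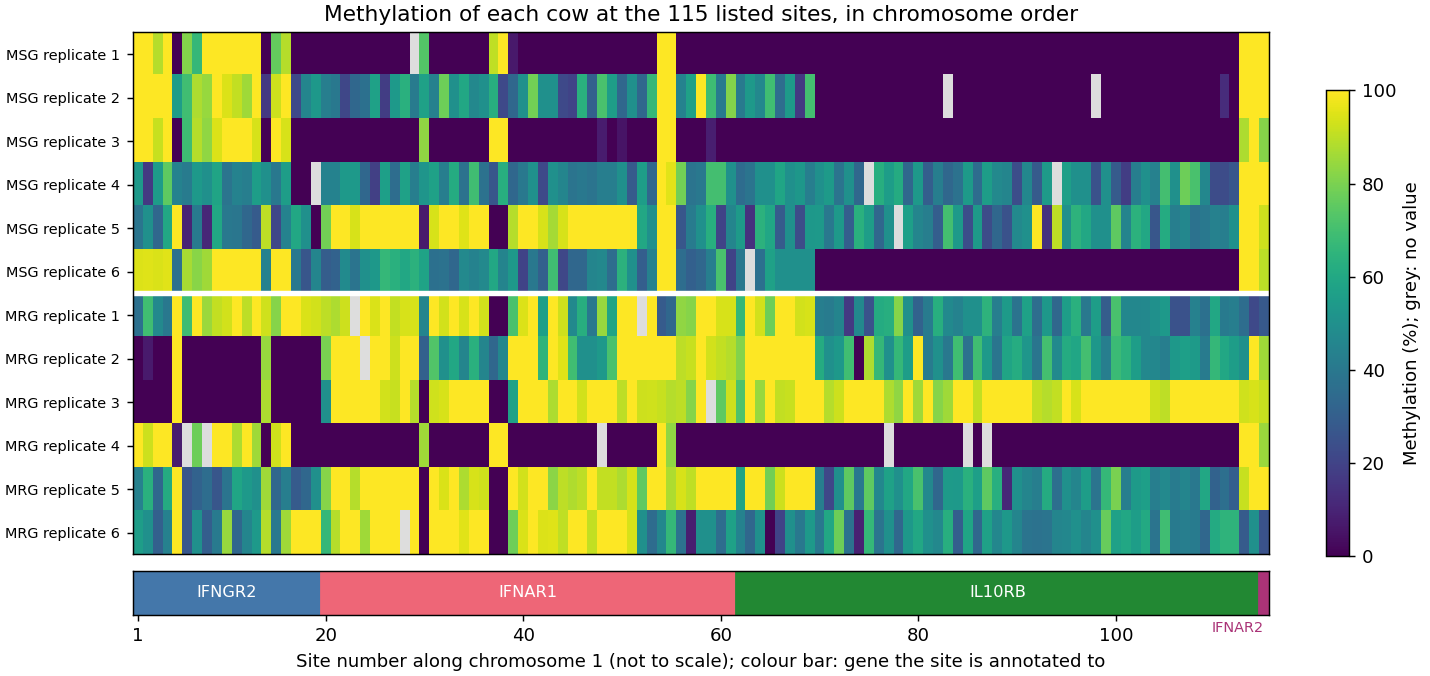
Percent methylation of each of the 12 cows (rows) at the 115 listed sites in chromosome order (columns), with grey where a cow had no value and the lower strip giving the annotated gene. MSG replicates 1 and 3 and MRG replicate 4 were at or near 0% across nearly all IFNAR1 and IL10RB sites, and the other cows held steady levels that changed together at a few positions.

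IL10RB held its sites between positions 2263771 and 2331023 of chromosome 1 (ARS-UCD1.2). Introns held 47 of them, 5 were annotated to the promoter and 1 to the 3' untranslated region. The gene model given for 52 of the 53 sites ran from 2286330 to 2307874, and 42 sites lay inside the model given for them. Over the 51 sites lower in MSG, MSG replicates 1 and 3 averaged 0%, replicates 2 and 6 averaged 8.17% and 6.68%, and replicates 4 and 5 averaged 45.1% and 47.9%. In MRG, replicate 4 averaged 0%, replicate 3 averaged 95.7%, and replicates 1, 2, 5 and 6 averaged 53.7%, 62.1%, 56.4% and 47.5%. MSG replicates 1, 2, 3 and 6 and MRG replicate 4 were thus low, and 1 MRG cow was alone near full methylation. MSG averaged 17.98% ± 22.4 and MRG 52.6% ± 30.9 (SD over 6 cows each), and the MRG mean was 63.1% ± 18.995 without replicate 4.

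The densest stretch of the IL10RB sites lay in intron 5 of 6 of its longer transcript, where 16 sites, all lower in MSG, fell within 1658 bases (2293004 to 2294661). There MSG replicates 1, 2, 3 and 6 averaged 0%, and replicates 4 and 5 averaged 44.9% and 42.6%. MRG replicate 4 averaged 0%, replicate 3 averaged 94.7%, and replicates 1, 2, 5 and 6 averaged 52.5%, 57.0%, 52.4% and 47.3%. MSG averaged 14.6% ± 22.6 and MRG 50.6% ± 30.2. A second stretch of 9 sites in intron 4 (2302225 to 2303816) repeated those levels, with an MSG mean of 16.9% ± 26.2 against 49.9% ± 31.1 for MRG. A further stretch of 5 sites in intron 6 (2279071 to 2279654) differed from both, with MSG replicates 2, 4, 5 and 6 at 42.8% to 51.4%, MRG replicates 1, 2, 3 and 5 at 93.0% to 100% and MRG replicate 6 at 32.8%.

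The widest difference of the whole set was at the minus-strand cytosine 2294253 of IL10RB, 13.6 kb inside the start of the shorter gene model, the one given for most IL10RB sites. MSG replicates 1, 2, 3 and 6 stood there at 0%, replicate 4 at 55.6% and replicate 5 at 23.1%. MRG replicates 1, 2, 3, 5 and 6 stood at 64.7%, 53.8%, 100%, 75% and 57.1%. MRG replicate 4, which was at exactly 0 at each of the 40 neighbouring sites of this profile that gave it a value, had no value at this cytosine. The group means were 13.1% ± 22.8 (SD, n = 6) and 70.1% ± 18.6 (SD, n = 5), a difference of 57.0 points. The groups overlapped through MSG replicate 4, and limma gave p = 0.000870 and an adjusted p of 0.0781, while the exact permutation test gave p = 0.00649 and an adjusted p of 0.117. Another 2 sites of IL10RB that lacked MRG replicate 4, at 2294225 and 2293204, had differences of 49.0 and 43.8 points lower in MSG.

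Near the start of the shorter IL10RB model, the differences changed sign within a few kb. Of its promoter sites, 4 lay inside the gene, 2.62 to 2.73 kb from the start, and were lower in MSG: at 2305149 MSG averaged 11.1% ± 18.5 and MRG 53.2% ± 34.0. The fifth promoter site, at 2309993 and 2.12 kb upstream of that start, was higher in MSG, and it lies within the longer IL10RB model (2242523 to 2314142). There 5 MSG cows stood at 100% and replicate 3 at 87.5%, whereas MRG replicates 1, 2 and 6 stood at 35.7%, 50% and 28.6% and replicates 3, 4 and 5 at 92.9%, 100% and 91.7%. MSG averaged 97.9% ± 5.10 and MRG 66.5% ± 32.0, and MRG replicate 4 was here among the highly methylated cows.

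**Figure D2:**
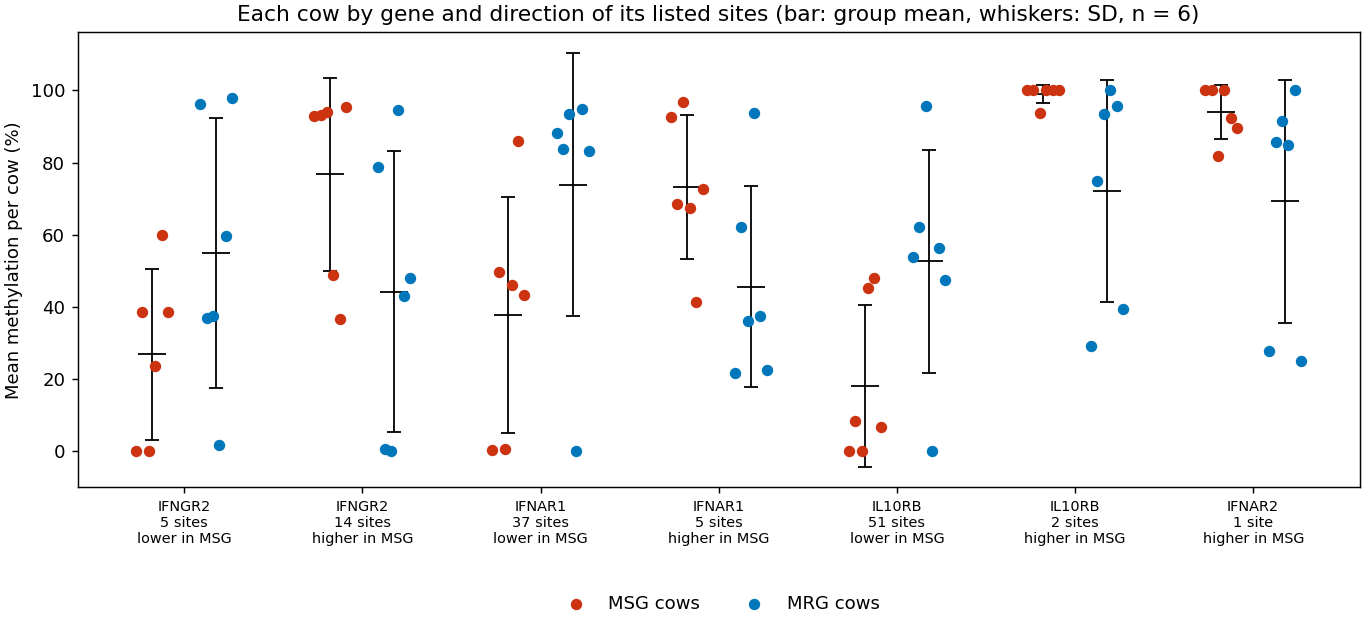
Mean methylation of each cow over the sites of a gene that were lower or higher in MSG, with the group mean (bar) and SD (whiskers, n = 6). The ranges of the groups overlap in every column, and MRG replicate 4 is the MRG point at 0% for the lower sites of IFNAR1 and IL10RB.

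IFNAR1, the type I interferon receptor chain that binds the kinase TYK2, had sites from 2181468 to 2261575, with the gene model at 2189895 to 2218344. Only 16 of its 42 sites lay inside the model. A further 8 sites annotated to IFNAR1 lay in intron 6 of the longer IL10RB transcript, 15 were intergenic, and 3 were in the promoter window upstream. Over its 37 sites lower in MSG, MSG replicates 1 and 3 averaged 0.185% and 0.575%, replicates 2, 4 and 6 averaged 49.7%, 46.1% and 43.3%, and replicate 5 averaged 86.0%. MRG replicates 1, 2, 3, 5 and 6 averaged 88.1%, 83.9%, 93.4%, 94.7% and 83.3%, and replicate 4 averaged 0%. MSG cows were spread over 3 levels, and MRG cows over 2. MSG averaged 37.6% ± 32.7 and MRG 73.9% ± 36.5 (SD over 6 cows), and without replicate 4 the MRG mean was 88.7% ± 5.29.

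The IFNAR1 promoter window showed the same order of cows. At 2220713, 2.37 kb upstream of the start, MSG replicates 1 and 3 and MRG replicate 4 stood at 0%, MSG replicates 2, 4 and 6 at 50%, 40% and 20%, and MSG replicate 5 at 100%. The other MRG cows stood at 93.3% to 100%. MSG averaged 35% ± 37.8 and MRG 80.4% ± 39.5. An intergenic stretch of 7 IFNAR1 sites (2232431 to 2234756) averaged 38.8% ± 36.6 in MSG against 71.4% ± 37.1 in MRG. The largest difference of IFNAR1 was intergenic, at 2230173 and 11.8 kb upstream, where MSG averaged 30.5% ± 35.4 and MRG 78.0% ± 38.4. The listed site nearest to the IFNAR1 start was 1.57 kb away.

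A pair of adjacent CpGs in intron 2 of 10 of IFNAR1 ran in opposite directions, within a stretch of 8 sites (2210559 to 2210624) of which 6 were lower in MSG. These CpGs, picked after their values were seen as the closest ones of opposite sign, lay 10 bases apart at 2210613 and 2210623, and each was listed on both strands. At the first, averaged over strands, MSG replicates 1 and 3 and MRG replicate 4 stood at 0%, and at the second they stood at 95.2%, 100% and 100%. MSG replicate 5 and MRG replicates 3 and 6 stood at 100% at the first and at 0% at the second. MSG replicates 2, 4 and 6 stood at 48.3%, 53.4% and 45.8% at the first and at 42.4%, 44.6% and 52.5% at the second. MRG replicates 1 and 5 stood at 96.7% and 93.3% at the first and at 0% at the second, and MRG replicate 2 stood at 54.5% and 39.7%. In every cow the 2 values added up to between 90.7% and 100%. MSG averaged 41.2% ± 37.6 against 74.1% ± 40.2 in MRG at the first CpG, and 55.8% ± 37.3 against 23.3% ± 40.8 at the second.

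IFNGR2 had its 19 sites from 2105719 to 2157559, with 14 of them inside the gene model given for them. Over its 14 sites higher in MSG, MSG replicates 1, 2, 3 and 6 averaged 93.0%, 93.2%, 93.9% and 95.3%, and replicates 4 and 5 averaged 48.7% and 36.5%. MRG replicate 4 averaged 94.7%, replicate 1 averaged 78.8%, replicates 5 and 6 averaged 42.9% and 48.0%, and replicates 2 and 3 averaged 0.510% and 0%. The cows that were near 0 in IL10RB were thus the highly methylated ones here. MSG averaged 76.8% ± 26.8 and MRG 44.1% ± 39.0 (SD over 6 cows), and the MRG mean was 34.0% ± 33.8 without replicate 4. The widest difference was at 2106297 in intron 4 of 6, where MSG averaged 88.4% ± 16.97 and MRG 40.9% ± 38.1 (adjusted p = 0.0802 in limma).

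The promoter of IFNGR2 had sites of both directions. A CpG 0.475 kb inside the start of the shorter transcript (2120845, plus strand) averaged 76.98% ± 30.8 for MSG against 48.2% ± 42.7 for MRG. The minus-strand site 2123512, 0.766 kb inside the start of the longer transcript, averaged 33.4% ± 34.9 for MSG against 73.3% ± 36.0 for MRG, and MSG replicates 1 and 3 and MRG replicate 4 were there at 0%. A site 0.847 kb upstream of that start (2125125) was again higher in MSG, at 71.7% ± 33.4 against 41.3% ± 39.4 (SD, n = 6 each). The farthest upstream sites of IFNGR2, 3 intergenic cytosines 24.5 to 33.3 kb from the start, were lower in MSG, with MRG replicates 1 and 6 averaging 95.9% and 100% and MRG replicates 2, 3 and 4 at 0%.

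IFNAR2, the high-affinity chain of the type I interferon receptor, was represented by a plus-strand cytosine at 2361630, 11.5 kb upstream of its start. MSG cows stood at 81.8% to 100% there, MRG replicates 1 and 6 at 27.8% and 25%, and the other 4 MRG cows at 85% to 100%. The means were 93.9% ± 7.48 and 69.2% ± 33.6 (SD, n = 6 each), and the difference of 24.7 points fell to 15.9 without MRG replicate 6 and to 16.5 without MRG replicate 1. Inside the IFNAR2 gene, the deposited annotation placed a further site, 2331023 in intron 5 of 8, but gave it the symbol IL10RB. All MSG cows stood at 100% at that site, with MRG replicates 1 and 6 at 22.2% and 50%.

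**Figure D3:**
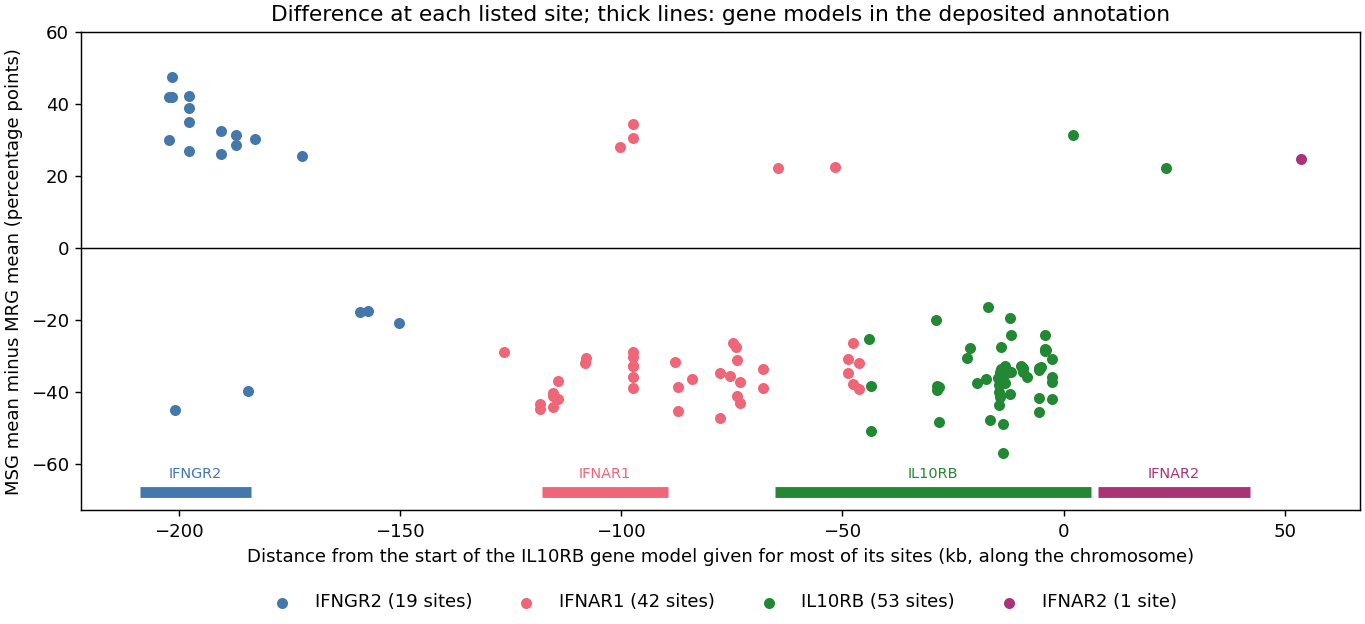
Difference between group means (MSG minus MRG, percentage points) at each of the 115 sites against distance along the chromosome from the start of the IL10RB gene model, with thick lines for the gene models. Sites of IFNAR1 and IL10RB lie mostly below 0, and those inside IFNGR2 mostly above 0.

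Grouped by their values over the 12 cows, the 115 sites fell into 6 profiles. The sites were joined by average linkage where their values differed by up to 20 points per cow on average, a rule set after the values were seen, and joining at 25 points gave 6 as well, at 15 points 8 and at 30 points 4. The largest profile had 47 sites, 37 of IFNAR1, 8 of IL10RB and 2 of IFNGR2, over 173 kb, and all were lower in MSG. In it MSG replicates 1 and 3 and MRG replicate 4 never exceeded 8.33%, and MSG replicates 2, 4 and 6 had medians of 50%, 44.4% and 43.8%. MRG replicates 2, 3 and 5 had medians of 100%. With the finer joining, this profile split into groups of 29, 15 and 3 sites. Over the 29 sites, which reached up to 2234756, MSG replicate 5 and MRG replicate 6 averaged 98.2% and 97.1%. Over the 15 sites, from 2240017 to 2279654, they averaged 43.3% and 38.1%. The group of 3 sites ran from 2181468 to 2263771, among the sites of the other groups, and there they averaged 74.0% and 63.0%.

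The second profile held 43 sites, all of IL10RB and all lower in MSG, between 2286122 and 2305259. MSG replicates 1, 3 and 6 were at exactly 0 at all 43, and MSG replicate 2 at 40 of the 41 with a value. MRG replicate 3 stood at 81.8% or more at all 43, and MRG replicates 1, 2, 5 and 6 had medians of 46.2%, 55.6%, 50% and 50%. Over the group of 15 sites from 2240017 to 2279654, MSG replicates 2 and 6 averaged 56.0% and 43.0%, and 0.305% and 0% over these 43. The averages of MRG replicates 1, 2 and 5 went from 93.7%, 97.0% and 95.3% to 46.8%, 55.5% and 49.9%. The change fell between 2279654, in intron 6 of the longer IL10RB transcript, and 2286122, annotated to the 3' untranslated region.

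The third profile held the 14 IFNGR2 sites higher in MSG. The fourth held 5 sites scattered over 118 kb, annotated to IFNAR1, IL10RB and IFNAR2, at which MRG replicates 1 and 6 averaged 29.5% and 43.3% and the other 10 cows averaged 87.1% to 100%. These 5 were the only member sites with no cow at exactly 0. At the other 110 sites (95.7%, against 78.3% of all listed sites) at least 1 cow was at exactly 0, and these included all 93 sites lower in MSG. The last 2 profiles were the 3 upstream IFNGR2 sites described above and 3 IFNAR1 sites in intron 2 that were higher in MSG.

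Single values piled up at a few levels. Of the 1361 values of a cow at a member site, 29.6% were exactly 0, 0.735% lay above 0 and up to 10, 4.70% lay above 10 and up to 30, 33.2% lay above 30 and up to 70, and 18.1% were exactly 100. Over all listed sites 21.7% were exactly 0, 6.31% lay above 10 and up to 30, 31.4% lay above 30 and up to 70, and 16.96% were exactly 100. At exactly 0 stood 37.5% of the IL10RB values, 23.7% of those of IFNAR1 and 22.2% of those of IFNGR2. At exactly 100 stood 10.4%, 25.4% and 22.7% of them. The part of sequence variants in these levels was not tested.

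**Figure D4:**
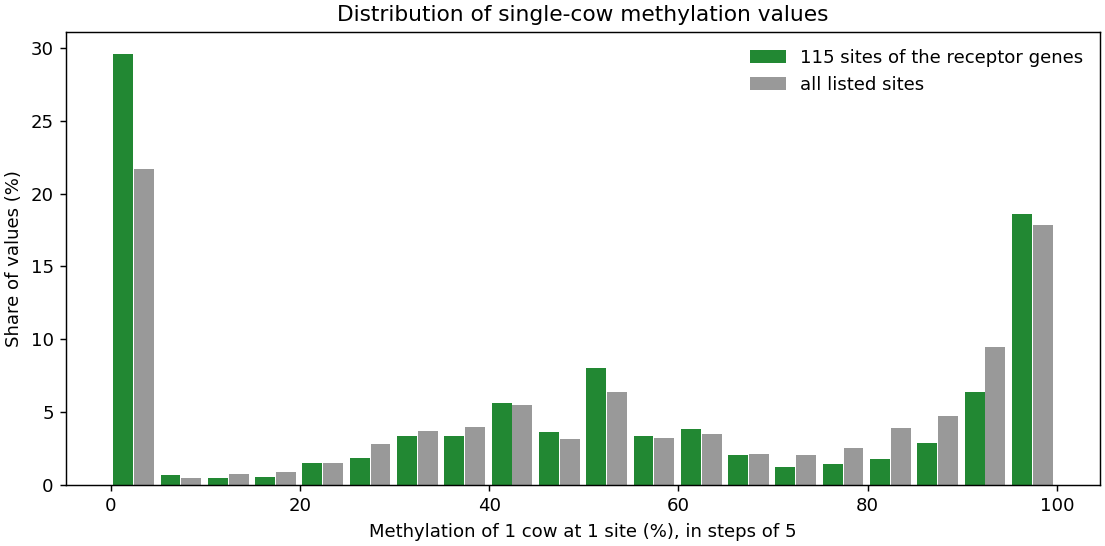
Share of single-cow methylation values in steps of 5% for the 115 member sites and for all 196275 listed sites. The member sites have a peak at 0%, where 29.6% of values are exactly 0, a broad group around 50% and a peak at 100%.

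Both strands of a CpG gave a second reading of each cow. The 115 sites came from 77 CpGs, and 38 of these (49.4%) were listed on both strands, against 28.1% of the 153202 CpGs of all listed sites. In all 38 the strands had the same direction, as they had in all 43073 CpGs of the table listed on both strands, and the listing by difference favours this. Over 442 comparisons of a cow's strands, the median absolute difference was 4.40 points, and 83.7% were within 20 points. A cow was at exactly 0 on both strands in 129 comparisons and on 1 strand only in 4, so that a 0 was shared in 97.0%, against 96.5% over all listed sites. IL10RB had 75 such comparisons, and both strands were at 0 in all of them.

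**Figure D5:**
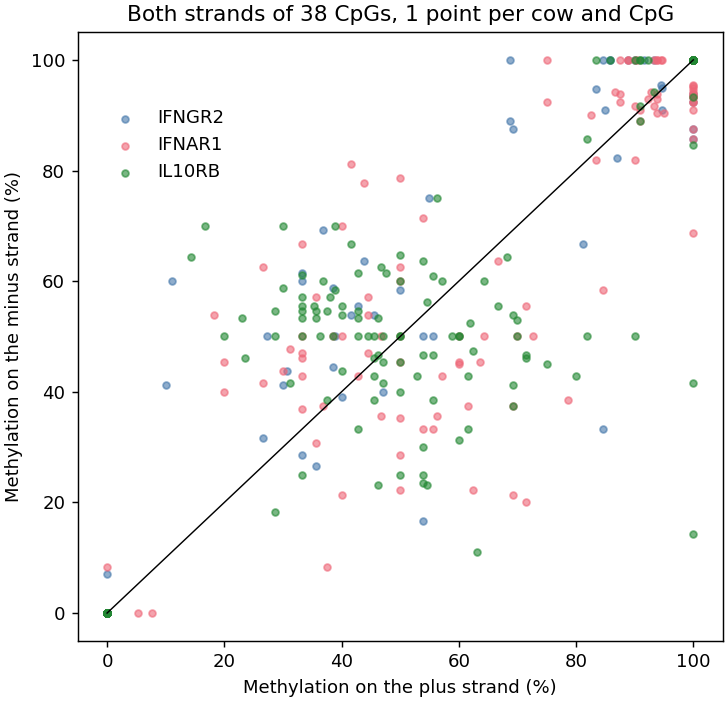
Methylation on the minus strand against that on the plus strand for 38 CpGs listed on both strands, 1 point per cow and CpG, with the line of equality. Points gather at 0% on both strands, around 50% and near 100%, and 83.7% lie within 20 points of equality.

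The genes next to the receptor genes shared part of the pattern. Of 23 genes looked for as neighbours, 16 had a listed site. Of their 384 sites, 295 (76.8%) were lower in MSG, against 47.3% of all listed sites. These counts take in RUNX1, which lay 145040 kb away in this build and had 3 of its 19 sites lower. In limma 0 passed the adjusted threshold, and 265 of the 384 had an unadjusted p under 0.05, as had 51.9% of all listed sites. TMEM50B, on the IFNGR2 side, had all 29 sites lower, with MSG replicates 1 and 3 and MRG replicate 4 averaging 0.265%, 0.658% and 0%, MSG replicates 2, 4 and 6 averaging 42.5%, 51.4% and 48.1%, and the other cows 86.4% to 96.9%. Those are the levels of the largest profile of the receptor genes. Of the 29 TMEM50B sites, 9 lay inside the gene. GART had all 9 sites lower at similar levels, and an exonic window in it (1995001 to 1995500) averaged 60.8% ± 27.0 for MSG against 87.1% ± 26.6 for MRG (limma adjusted p = 0.0711 over the windows).

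On the IFNAR2 side the cows were ordered differently. OLIG2 had 75 of 84 sites lower and C1H21orf62 had 78 of 79 lower in MSG. Inside the gene lay 0 of the 84 and 7 of the 79. Over their lower sites MSG replicates 1 and 3 averaged 0.478% or less in both genes, but MRG replicate 4 averaged 47.9% and 46.0%, and MSG replicate 4 averaged 92.0% and 91.4%. Of 3 windows near OLIG2, the first (2612751 to 2613250) averaged 46.3% ± 40.5 for MSG against 73.8% ± 21.7 for MRG. It did not pass (limma adjusted p = 0.0951 over the windows). The overlapping pair from 2644501 to 2645250 was higher in MSG, at 48.9% ± 25.7 against 21.1% ± 13.1 in the window starting at 2644501. For the pair, limma's adjusted p was 0.0403 and 0.0413 over the windows, where 73.3% of all listed windows passed. Farther out, ATP5PO, on the IFNGR2 side (window 1565251 to 1565750), had 39 of 65 sites higher in MSG, and 2 of the 65 lay inside the gene. Its window averaged 60.8% ± 28.4 for MSG against 37.0% ± 30.9 for MRG (limma adjusted p = 0.117 over the windows). Of the 5 windows listed for the genes looked for as neighbours, 2 passed. Of the genes for which no side is given here, CFAP298 had 23 of 34 lower, KCNE2 had 14 of 19 lower and SMIM11 had 6 of 11 lower. Inside the gene lay 4 of the 34, 2 of the 19 and 9 of the 11. Over the lower sites of KCNE2 and SMIM11, MSG replicates 1 and 3 and MRG replicate 4 averaged 0%, as over the lower IL10RB sites. Over those of CFAP298, MRG replicate 4 averaged 34.6%. RUNX1, looked for as a neighbour, lay 145040 kb away in this build and had 16 of 19 sites higher.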

How the data were processed

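The authors deposited percent methylation per cow for CpG cytosines by strand and for windows of 500 bases. Beside it stand the authors' difference in percentage points, their p-value and their q-value, and a gene annotation, per the file headers. The submitters' processing notes name fastp 0.23.1, Bismark, DRAGEN and ChIPseeker 1.32.1 and the build ARS-UCD1.2, with no role or order. Which differential test the authors ran is not given in the sources used here. Each site had a value for at least 5 cows per group, and 96 of the 115 sites had one for all 12.

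The window table held 36 columns of coverage and read counts whose names carry no cow, and they were not used. Depth is therefore unknown and gives no interval here, and a planned logistic model on counts gave way to a model on percent. The spread between cows sets the precision. Replicate numbers only name the cows, in accession order. Whether samples differ by batch is not given in the labels.

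MSG was compared with MRG with limma 3.58.1 (R 4.3.3), fitted to the percentages of each whole table, two-sided, with Benjamini-Hochberg adjustment over all its rows and a threshold of 0.05, and by an exact permutation test on mean differences across all 924 regroupings, whose smallest p for 6 cows against 6 is 0.00216. The limma fit drew the spread of each site strongly toward the common spread (prior degrees of freedom 63.7), so its p followed mainly the size of the difference. Both tests were tested on simulated data. In the simulation for limma, with few changed sites among unchanged ones in a table of this size, limma recovered their differences but passed none after adjustment. Every row of the deposited table had been listed for a difference, so this simulation does not bear on its count of 0. That count does not show that sites did not differ. Means and SDs per gene are over cows, each cow being its mean over the sites. A run is a set of sites closer than 1 kb. Profiles, joined by average linkage at 20 points, were chosen after seeing the data. All sites and windows of the members, runs of 5 or more sites, the site of the largest difference, and list genes with 10 or more sites or a window were to be named. The members and lists were chosen with earlier results of these data known. The list of kinase and transcription factor genes is not reported here. Of 131 member and list symbols, 122 were found in a RefSeq names table of another assembly (ARS-UCD2.0), which gave no coordinates here. No sequence of the build was used, so none is printed.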

Additional observations from a re-analysis of the deposited data

Results flagged for a closer look

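In 34 sets of 6 cows (per gene and direction, and per profile), a cow stood apart from the others of its group in 5, by a gap over 0.625 of the group's range. For normally distributed values, chance flags about 1 in 20 such sets. Values here pile up at a few levels and the sets share sites, so that rate need not hold. MRG replicate 4 was the lowest MRG cow over all IFNAR1 sites (11.4%), over the IFNAR1 sites lower in MSG (0%) and in the largest profile (0.167%), and the other 5 MRG cows stood at 75.6% or more in that profile. MSG replicate 3 was the lowest MSG cow over the 2 IL10RB sites higher in MSG (93.8%) and in the profile of 5 sites without a cow at 0 (93.9%), where the other MSG cows stood at 97.9% to 100%.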

How the results depend on the processing

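The count of 93 member sites lower in MSG was the same whichever cow was left out (93 to 93), but fell to 57 with sites inside their gene only, which leaves 72 sites, and to 0 when sites with any cow at exactly 0 were left out, which leaves 5. On those 5 sites the mean difference turned from -32.3 to 26.9 points for IL10RB and from -28.5 to 22.4 points for IFNAR1, over 2 sites each. The count of sites passing limma was 0 with each cow left out (0 to 0) and in the exact permutation test. It was 1 without sites with a cow at 0 (IL10RB, 2309993, adjusted p = 0.0342, named after its value was seen; 73.1% of such listed sites passed) and 40 of 71 sites with a stricter difference of 35 points (57.9% of such listed sites passed). In both fits limma set the spread of every site to a common value. The 35-point filter keeps sites by the authors' difference between the same groups, so it selects on what is then tested. Of the 90194 listed sites it kept, 72506 had an unadjusted p under 0.05. The 40 of 71 therefore supports nothing about the member sites. The count of sites whose groups do not overlap ran from 0 to 2 with a cow left out, with 2 without MSG replicate 4 and 2 without MRG replicate 2. The share over all listed sites was not computed with a cow left out, so these counts say nothing particular about the member sites. With a cow left out, the mean difference ran from -42.1 to -23.8 points for IL10RB, from -40.3 to -22.4 for IFNAR1, from 9.99 (without MRG replicate 3; 10.03 without MRG replicate 2) to 24.7 for IFNGR2 and from 15.9 to 30.9 for IFNAR2. With all 12 cows present, with strands averaged, on a log2 scale and at a threshold of 0.01, limma also passed 0 member sites. Each gene kept its direction with all 12 cows present, with strands averaged and with 1 value per run, but the IFNGR2 difference of 17.3 points went to 9.21 with strands averaged and to 7.63 with 1 value per run. No alternative gave a value for windows, since none carried a member's symbol. IFNAR2 had no site inside its gene or past 35 points, and IFNGR2 had none without a cow at 0. Depth was not used, so no minimum of coverage was applied. No paired analysis was possible because the labels give no replicate numbers that tie cows across groups.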

Other observations

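Other genes of the pathways were counted by lists, with 0 sites passing limma's adjusted threshold in each list given here. All these sites had been listed for their difference between the groups, and over all listed sites 47.3% were lower in MSG. The mean of a gene is over only its sites of the direction named, which fixes the sign of the gap. Sites were assigned by their deposited symbol, and most sites of each gene named here lay outside that gene. Inside it lay 16 of 58 sites for IL20RA, 9 of 22 for IFNGR1, 5 of 17 for IL22RA1 and 3 of 15 for IL22RA2. Of 127 sites of the 8 other class II cytokine receptor genes, 63 were lower and 64 higher in MSG; limma's unadjusted p was under 0.05 at 89, against 51.9% of all listed sites. IL20RA had 39 of 58 sites higher, with MSG at 77.9% ± 15.4 and MRG at 40.5% ± 23.3 over those sites, and its neighbour IL22RA2, which encodes a soluble decoy receptor for interleukin 22, had 14 of 15 lower, over those 14 at 18.3% ± 17.3 and 55.5% ± 26.1. IFNGR1, the ligand-binding partner of IFNGR2, had 13 of 22 sites lower, over those 13 at 15.02% ± 19.98 and 51.6% ± 30.3, and IL22RA1 had 13 of 17 lower, over those 13 at 28.3% ± 22.5 and 67.35% ± 20.4 (SD, n = 6 each).

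Ligand genes had 48 sites in 5 of 25 genes, 20 lower and 28 higher, with 25 at an unadjusted p under 0.05, a share close to the 51.9% of all listed sites. The interferon gamma gene IFNG had 11 of 14 sites higher in MSG (over those 11, 71.3% ± 19.8 against 34.5% ± 20.2). IFNK had 11 of 18 lower (over those 11, 55.0% ± 11.2 against 83.9% ± 26.3). Of the 14 IFNG sites 0 lay inside the gene, and of the 18 IFNK sites 0 did.

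Inhibitor genes had 35 sites, 17 lower and 18 higher, with 11 at an unadjusted p under 0.05, a smaller share than the 51.9% of all listed sites. USP18 had 15 of 17 lower (over those 15, 43.1% ± 18.3 against 72.7% ± 20.5), and 1 of the 17 lay inside the gene. Target genes had 108 sites in 24 of 47 genes, 68 lower and 40 higher, with 57 at an unadjusted p under 0.05, a share close to the 51.9% of all listed sites. IFI44 had 11 of 20 sites lower and CXCL10 had 8 of 13 lower. Of the 20 IFI44 sites 0 lay inside the gene, and of the 13 CXCL10 sites 2 did.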
